A study of Caenorhabditis elegans with 6 samples.

Results

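The hedgehog-related and patched-related genes of Caenorhabditis elegans were followed through worms exposed to GYY4137, a slow donor of hydrogen sulfide (H2S). A probe set, the group of array probes that gives 1 expression value, was a member when every gene symbol annotated to it began with wrt-, grd-, grl-, hog-, ptr- or ptc-. The rule used names only, but the family and the gene lists below were chosen with earlier results of these data known. The rule found 95 of the 22548 probe sets on the array that were not Affymetrix controls. They covered 79 genes through probe sets with 1 symbol, of which 12 had more than 1 probe set, and 1 further probe set carried both ptc-1 and ptc-2. The members were 11 wrt, 13 grd, 34 grl, 1 hog, 32 ptr and 4 ptc probe sets.

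In flies and vertebrates, secreted hedgehog ligands bind the membrane protein Patched and thereby relieve its hold on Smoothened. Nematodes have no clear Smoothened, but they have an expanded set of hedgehog-like secreted proteins and of Patched-like membrane proteins with a sterol-sensing domain. The ligand side comprises warthog (wrt), groundhog (grd) and ground-like (grl) proteins and hog-1, one of several genes with an autoprocessing Hog domain. The receptor side comprises the Patched homologs (ptc) and the larger patched-related (ptr) family. Many of these genes are made in the epidermis and in glia-like support cells, many cycle with the larval moults, and several are needed to shed and rebuild the cuticle.

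RNA came from whole worms of strain N2 (Bristol), which the labels call L4 larvae. There were 3 control arrays from worms raised under standard conditions and 3 arrays from worms given 100 uM GYY4137, 48 h in liquid and 12 h on plates. No genetic change separates the groups, whether controls had a mock liquid phase is not given in the sources used here, and the labels do not say whether replicates came from separate cultures. The p-values below thus rest on array-to-array spread that may be technical only. Col-19, a collagen gene of the adult cuticle, stood between 9.72 and 9.81 on the controls and between 9.59 and 9.69 after GYY4137 in these samples labelled as larvae. The yolk genes, also adult markers, had a mean between 11.66 and 11.82 on the controls and between 11.57 and 11.74 after GYY4137. The stage at harvest is thus not settled, and the members may have been read in worms past the L4 stage.

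Values are the authors' GCRMA expression values, read as log2. Each array had 7723 to 8050 probe sets above a log2 value of 4, the floor used here for a measurable level. The GYY4137 replicate 3 array differed most, with correlations to the other 5 across tested probe sets of 0.940 to 0.965 against 0.979 to 0.993 among the others. A call that changes without this array is given both ways below, and the plot of differences shows each tested member both ways.

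Most of the family was at or near background in these worms. Of the 95 probe sets, 62 were above the floor on none of the 6 arrays, and 30 were above it on at least 3 arrays and were tested. That is 31.6% of the members, against 35.7% of the whole array. The 30 cover 24 genes: 4 of 10 wrt, 4 of 12 grd, 9 of 30 grl, 5 of 24 ptr and 2 of 2 ptc genes, while hog-1 was not tested. Of the 30, 15 end in _s_at or _x_at, which marks probe sets that can bind related transcripts. They include those read below for grl-4, grl-5, grl-16, wrt-2, wrt-4, wrt-10, ptr-8, ptr-24 and ptc-3. For the other 65 probe sets the mean over the 6 arrays ran from 2.12 to 3.82. Among these were wrt-5, a ligand gene needed in embryos, at 3.73 to 3.83 on the controls and 3.81 to 3.93 after GYY4137. Ptr-10, which marks glia, stayed between 2.82 and 3.23 on all 6 arrays. The probe set shared by ptc-1 and ptc-2 lay between 2.57 and 3.15, so no level can be given for ptc-2. One tested probe set, for ptr-4, passed only through the GYY4137 arrays and so had to lie higher there.

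**Figure D1:**
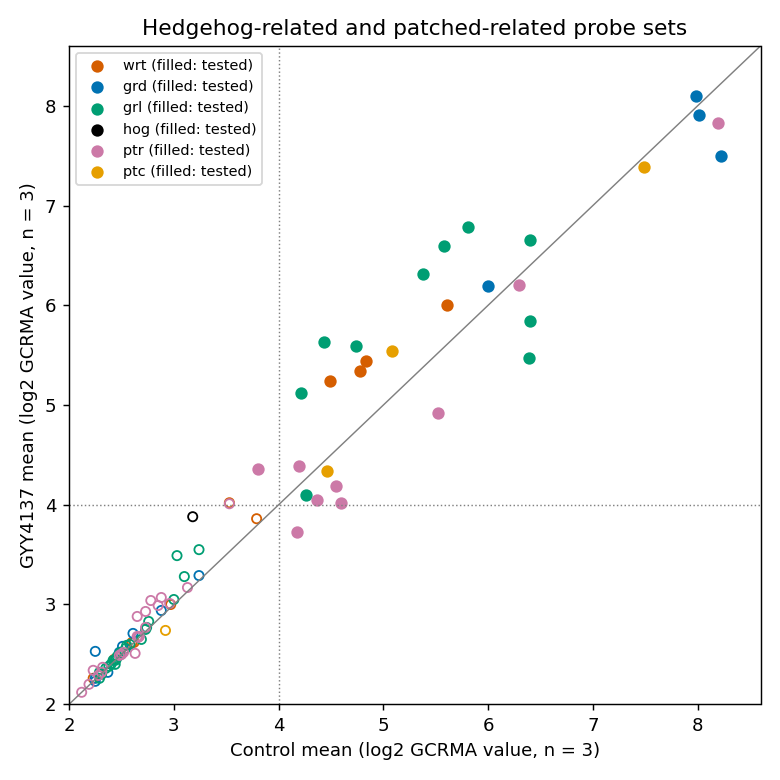
Mean log2 expression value on the 3 control arrays (x axis) against the 3 GYY4137 arrays (y axis) for the 95 member probe sets, coloured by gene family, with the line of equality and dotted lines at the floor of 4. Filled points are the 30 tested probe sets, and most open points, left out of the test, crowd on the line below 4.

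Of the family, 2 ground-like ligand genes rose after GYY4137. Limma called 3 of the 30 tested members raised at an adjusted p under 0.05, for the genes grl-7 and grl-23, against 1.09% of all 8053 tested probe sets. It called 0 lowered, against 0.41% of all. At an unadjusted p under 0.05 limma had 10 members higher and 8 lower, which is 33.3% and 26.7% of the tested members, where all tested probe sets gave 9.20% and 8.52%. These are probe sets and not separate genes. The 10 include both probe sets of grl-7, and the 8 include ptr-23 on 188059_at and on 188060_s_at. The GYY4137 arrays lay wholly above the controls for 11 members (all tested: 13.4%) and wholly below for 8 (all tested: 15.6%). The higher counts include the ptr-4 probe set whose direction the filter fixed, and without it 9 of 29 members were higher at that p and 10 of 29 lay wholly above (34.5%). With all such probe sets left out, the shares over the array were 8.88% and 13.1%. Because the family was chosen with earlier results known, its shares beside those of the array are description and no test. The members' median difference was 0.16 on the log2 scale, with 16 above control and 14 below, beside a median of -0.04 over all tested probe sets. Without GYY4137 replicate 3 that median was 0.03 and limma called 5 raised and 5 lowered members, where 3.04% and 1.69% of all tested probe sets were called. Whole worms were measured, so fewer cells of a type and less RNA per cell cannot be told apart.

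Most tested ligand probe sets lay above control and most tested ptr probe sets below, whether called or not. Over all 8053 tested probe sets, 3452 lay above control and 4601 below, so most of the array also lay below. The 4 tested wrt probe sets were all above control, with a median difference of 0.59 (0.46 without GYY4137 replicate 3). Of 10 grl probe sets 7 were above and 3 below (median 0.88, and 0.68 without that array). The 4 grd probe sets split evenly, with 2 above and 2 below (median 0.01 and -0.05). Of 9 ptr probe sets 7 were below control, 4 of them for ptr-23, and 2, both for ptr-4, above (median -0.36 and -0.24). With 1 probe set per gene the ptr median was -0.32. The 3 ptc probe sets had a median of -0.10 (-0.02 without that array), but 2 of them measure ptc-1, and with 1 probe set per gene the median turned to 0.17. These medians describe the probe sets that passed the filter, and no difference between families was tested.

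**Figure D2:**
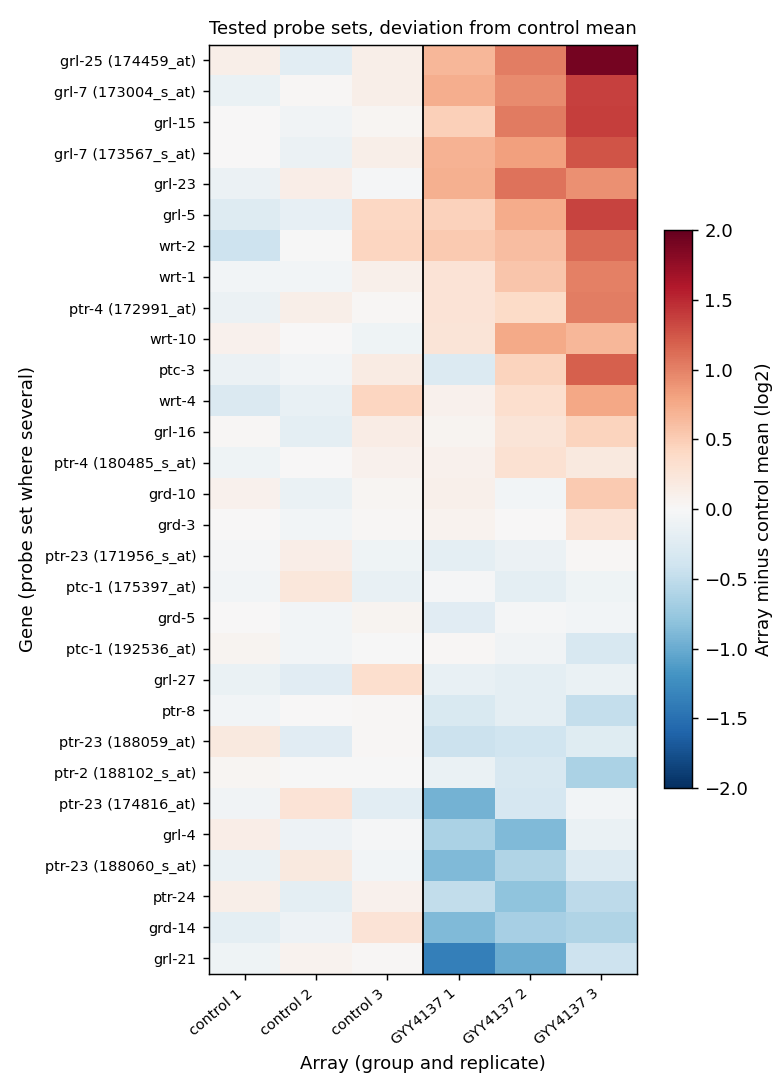
Deviation of each array from the control mean (colour, log2) for the 30 tested probe sets, ordered by GYY4137 minus control, with the 3 control arrays left of the line and the 3 GYY4137 arrays right. The highest rows are grl and wrt probe sets, the lowest are grl-21, grd-14, ptr-24, ptr-23 and grl-4, and GYY4137 replicate 3 is the deepest red column in most upper rows.

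Among the ligands, grl-7 rose on both of its probe sets. GRL-7 is a ground-like protein of the epidermal surface that PTR-18 has been shown to clear by endocytosis in late embryos. On its probe set 173004_s_at the controls read 5.44, 5.60 and 5.70, and the GYY4137 arrays 6.31, 6.52 and 6.95. Each treated array was thus above each control. The rise was 1.01 ± 0.18 (standard error, 3 arrays per group), or 2.02-fold, with a limma adjusted p of 0.0461. Probe set 173567_s_at read 5.39, 5.26 and 5.50 on the controls and 6.08, 6.20 and 6.64 after GYY4137, a rise of 0.92 ± 0.17 with a limma adjusted p of 0.0480. The groups were again apart, and both probe sets can bind related transcripts, as their _s_at endings mark. Without GYY4137 replicate 3 the rises were 0.83 and 0.76 and stayed called (limma adjusted p = 0.00735 and 0.00787).

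Grl-23, a ground-like gene with less described function, also rose. Its controls read 4.09, 4.35 and 4.19, close to the floor, and the GYY4137 arrays 4.92, 5.30 and 5.12. The 3 treated arrays were close together and all above the controls. The rise was 0.91 ± 0.14, or 1.87-fold (limma adjusted p = 0.0311), and it was 0.90 without GYY4137 replicate 3 (limma adjusted p = 0.00903). Of the members, grl-23 had the smallest p, and its GYY4137 replicate 3 was within 0.01 of the average of replicates 1 and 2. Neither grl-7 nor grl-23 kept its call when any control array or GYY4137 replicate 2 was left out, and grl-7 on 173567_s_at also lost it without GYY4137 replicate 1. The highest adjusted p in those leave-outs was 0.225 for grl-7 and 0.165 for grl-23, while the differences stayed between 0.76 and 1.15 for grl-7 and between 0.81 and 1.00 for grl-23.

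Of the ground-like genes, 3 more lay higher on every treated array without passing. Grl-25 on probe set 174459_at read 4.54, 4.22 and 4.54 on the controls and 5.10, 5.45 and 6.34 after GYY4137. Its difference of 1.20 ± 0.30 exceeded that of any other tested member, but its treated arrays were also spread wide (SD 0.64), and it did not pass (limma adjusted p = 0.117). Without replicate 3 the difference was 0.84 and passed (limma adjusted p = 0.0142). The other grl-25 probe set, 174351_at, was under the floor on all 6 arrays, at 2.71 to 3.22 and 3.43 to 3.59. Grl-15 read 5.82, 5.74 and 5.85 on the controls and 6.29, 6.85 and 7.20 after GYY4137. The controls were tight and the treated arrays ranged widely, and the difference of 0.97 ± 0.22 did not pass (limma adjusted p = 0.0857). Without GYY4137 replicate 3 it was 0.76 and called (limma adjusted p = 0.0262), and it was also called without GYY4137 replicate 1. Grl-5, whose product has been tied to PTR-18 as GRL-7 has, read 4.48, 4.58 and 5.16 on the controls and 5.20, 5.48 and 6.09 after GYY4137. Control replicate 3 nearly met the lowest treated array, and the difference of 0.85 ± 0.27 did not pass with or without GYY4137 replicate 3 (limma adjusted p = 0.189 and 0.134).

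**Figure D3:**
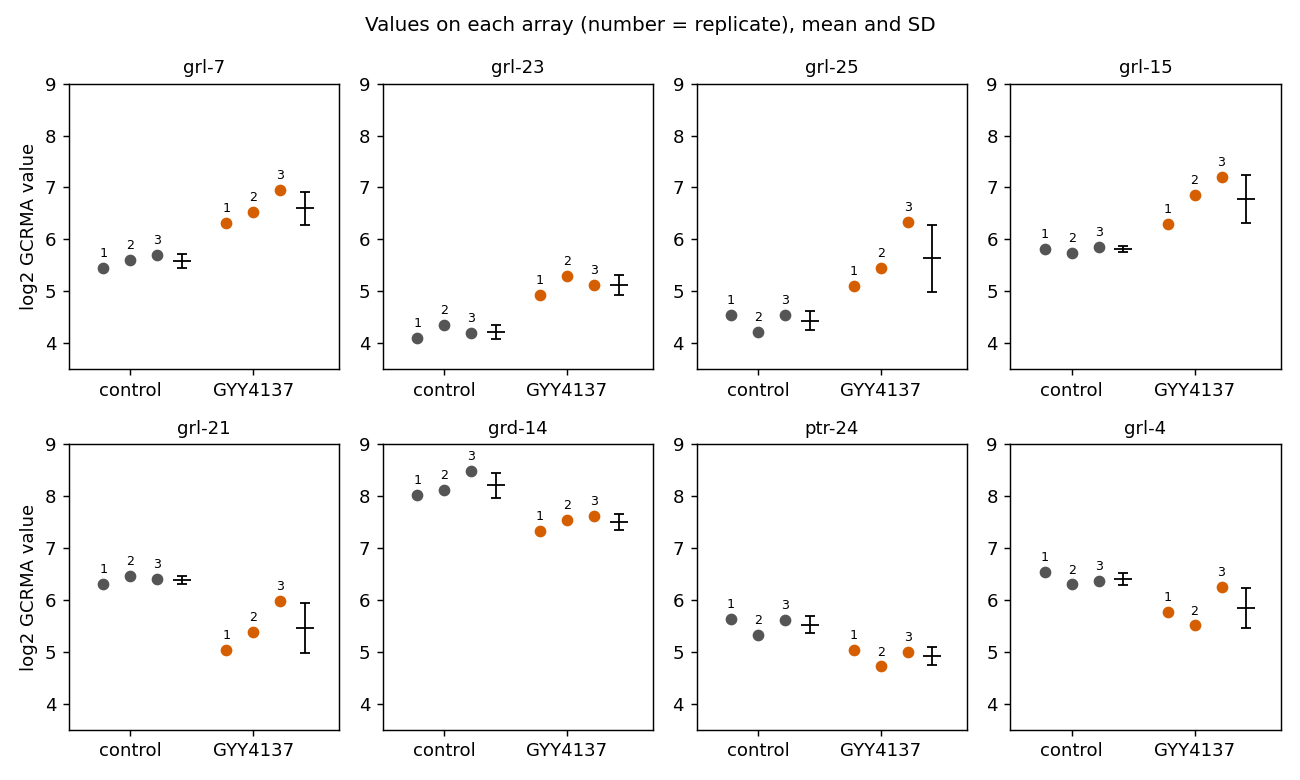
Log2 expression value on each array (points, numbered by replicate) with the mean and SD beside them (3 arrays per group) for grl-7 (173004_s_at), grl-23, grl-25 (174459_at), grl-15, grl-21, grd-14, ptr-24 and grl-4. In the upper row every GYY4137 array is above every control, in the lower row every GYY4137 array is below, and replicate 3 is the highest GYY4137 array for all but grl-23 and ptr-24.

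Other ground-like genes lay lower after GYY4137. Grl-21 has been placed with PTR-24 in a pathway that links gut bacteria to fat storage. It read 6.31, 6.46 and 6.41 on the controls and 5.03, 5.39 and 5.98 after GYY4137. The groups did not overlap, but GYY4137 replicate 3 was 0.77 higher than the average of replicates 1 and 2, towards the controls. Over the 6 arrays the difference was -0.93 ± 0.23 and did not pass (limma adjusted p = 0.114). Without that array it was -1.18 ± 0.13 and passed (limma adjusted p = 0.00164), the smallest p of any member there. Grl-4 read 6.54, 6.30 and 6.37 on the controls and 5.77, 5.51 and 6.26 after GYY4137. Replicate 3 again sat just under the controls, and the difference was -0.56 ± 0.20 with it (limma adjusted p = 0.223) and -0.76 without it, where it passed (limma adjusted p = 0.0112). Grl-27, at 4.04 to 4.60 and 4.06 to 4.12, overlapped between the groups and differed by -0.16 ± 0.16. Grl-16, at 6.21 to 6.55 and 6.45 to 6.84, also overlapped, but its mean was above control, by 0.25 ± 0.15.

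The 4 tested warthog genes were read at moderate values and none passed. Wrt-2 read 4.08, 4.48 and 4.92 on the controls and 5.01, 5.10 and 5.62 after GYY4137. The groups were apart by a narrow gap, and the difference was 0.75 ± 0.25 (limma adjusted p = 0.202). Wrt-1 read 4.78, 4.77 and 4.93 against 5.10, 5.38 and 5.84, and wrt-10 read 4.87, 4.78 and 4.69 against 5.04, 5.53 and 5.44. Both were higher on each treated array, by 0.61 ± 0.19 and 0.56 ± 0.15 (limma adjusted p = 0.183 and 0.142). These genes neighbour each other among the protein-coding genes of the WBcel235 gene table. Wrt-4 overlapped between the groups, at 5.32 to 6.04 and 5.69 to 6.38. Without GYY4137 replicate 3 none of the 4 passed either (limma adjusted p = 0.101 for wrt-10 and 0.626 for wrt-4).

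Of the groundhog genes, grd-14 alone separated the groups. It read 8.03, 8.12 and 8.49 on the controls and 7.33, 7.55 and 7.62 after GYY4137, with each treated array below each control. The difference was -0.71 ± 0.15 (limma adjusted p = 0.0823), and without GYY4137 replicate 3 it was -0.77 and passed (limma adjusted p = 0.0241). Grd-5 ran from 7.95 to 8.07 on the controls and from 7.79 to 7.99 after GYY4137, differing by -0.10 ± 0.11. Grd-3 and its genome neighbour grd-10 differed by 0.12 ± 0.12 and 0.19 ± 0.17. For grd-10 the difference rested on GYY4137 replicate 3, at 6.52 against 6.10 and 5.95, and was 0.02 without it.

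On the receptor side, ptr-24, the gene whose product has been placed with GRL-21, lay lower after GYY4137. It read 5.63, 5.33 and 5.61 on the controls and 5.03 and 4.72 on GYY4137 replicates 1 and 2, with replicate 3 between these. The groups were apart, and replicate 3 was close to the other treated arrays. The difference was -0.60 ± 0.14, or 1.52-fold, which did not pass (limma adjusted p = 0.0973). Without replicate 3 it was -0.65 and passed (limma adjusted p = 0.0322). Ptr-8, at 4.32, 4.38 and 4.40 against 4.06, 4.18 and 3.90, was close to the floor and differed by -0.32 ± 0.12 (limma adjusted p = 0.229). Ptr-2 read 8.23, 8.18 and 8.18 against 8.06, 7.87 and 7.55 on probe set 188102_s_at. All its treated arrays were below the controls, by -0.37 ± 0.15 on average (limma adjusted p = 0.261) and by -0.23 without GYY4137 replicate 3, while its other 2 probe sets lay under the floor on all 6 arrays.

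Ptr-23 was measured on 4 tested probe sets, and all 4 had means below control by unequal amounts. Probe set 188060_s_at read 4.47, 4.79 and 4.55 on the controls and 3.72, 4.00 and 4.32 after GYY4137, a difference of -0.59 ± 0.17 (limma adjusted p = 0.167). On this probe set the groups did not overlap, and without GYY4137 replicate 3 it passed at -0.74 (limma adjusted p = 0.0182). The other 3 differed by -0.45 ± 0.24, -0.36 ± 0.14 and -0.10 ± 0.12 and passed neither way. The one with the smallest difference, 171956_s_at, ran from 6.20 to 6.43 on the controls and from 6.10 to 6.32 after GYY4137, so the gene's probe sets do not give 1 size.

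Ptr-4, a receptor-like gene needed for the precuticle and the moult, was higher on both of its probe sets. Probe set 172991_at read 3.69, 3.91 and 3.82 on the controls, all under the floor, and 4.08, 4.18 and 4.82 after GYY4137. The filter itself fixes that direction, and the difference of 0.56 ± 0.20, or 0.33 without GYY4137 replicate 3, is uncertain in size (limma adjusted p = 0.229 and 0.153). Probe set 180485_s_at, above the floor throughout, read 4.11, 4.19 and 4.27 against 4.28, 4.50 and 4.39, a difference of 0.20 ± 0.11 (limma adjusted p = 0.372). The groups were apart by 0.01 on the latter.

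The Patched homologs did not separate the groups. Ptc-1, which acts in cytokinesis of the germ line, read 7.43, 7.71 and 7.34 on the controls and 7.46, 7.29 and 7.41 after GYY4137 on probe set 175397_at. The difference was -0.10 ± 0.13, and on probe set 192536_at it was -0.12 ± 0.12. Ptc-3, an essential gene needed for growth and moulting, read 4.97, 5.03 and 5.25 on the controls and 4.81, 5.52 and 6.28 after GYY4137. Its treated arrays straddled the controls, and the difference of 0.45 ± 0.33 (limma adjusted p = 0.465) was 0.08 without replicate 3.

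**Figure D4:**
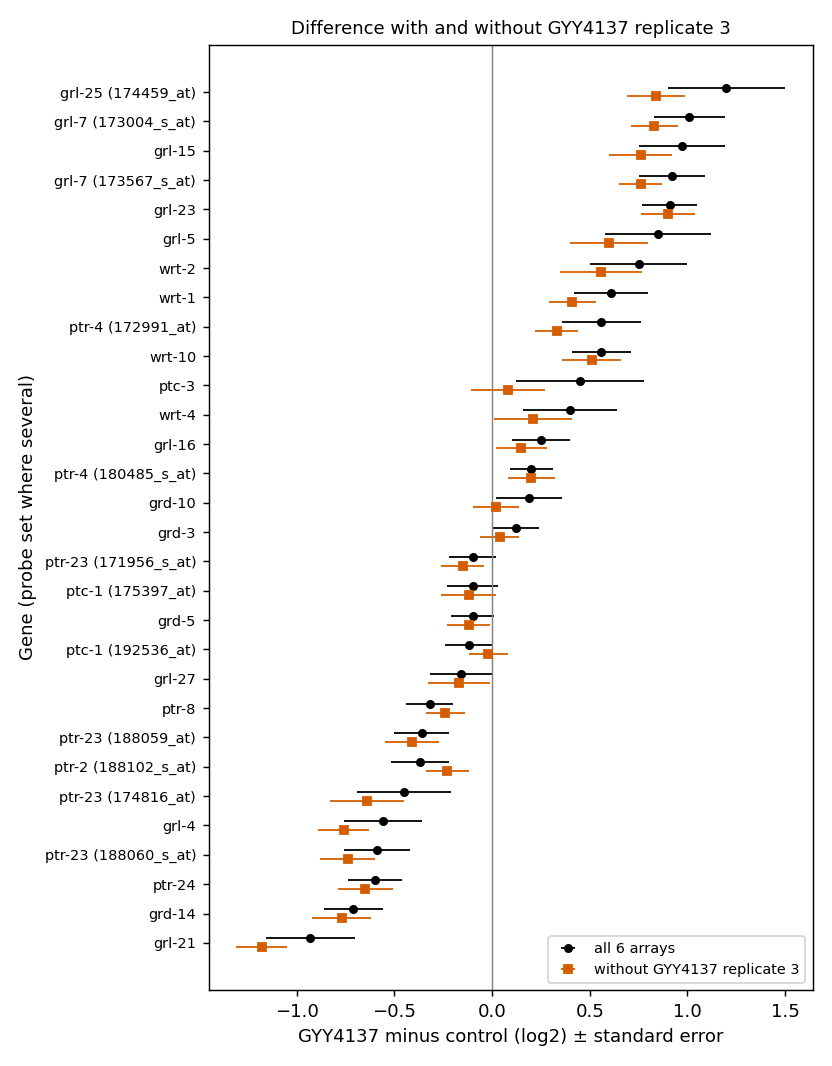
GYY4137 minus control (x axis, log2) with its standard error for the 30 tested probe sets, from all 6 arrays (circles) and without GYY4137 replicate 3 (squares). Without that array most upper values move towards 0, such as grl-25 from 1.20 to 0.84 and ptc-3 from 0.45 to 0.08, while grl-21 and grl-4 move further below 0.

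GYY4137 replicate 3 was the highest of the 6 arrays for 13 of the 16 tested members above control, and for 12 of 15 without the ptr-4 probe set whose direction the filter fixed. Among members below control it was the highest of the 3 treated arrays for 8 of 14 (57.1%), where 22.6% of all tested probe sets below control showed this. The 8 are probe sets and include every tested probe set of ptr-23, so they are not separate genes. For members above control the share was 81.2%, beside 61.8% of all tested probe sets above control. The part of this array in the members' differences is given by the values without it, and what set it apart was not tested.

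Other relatives of the pathway, outside the name rule, held no called gene with or without GYY4137 replicate 3. Of 7 such genes, 3 were tested and limma called 0, with 0 higher and 1 lower at an unadjusted p under 0.05 (median difference 0.12). Qua-1, a Hog-domain gene needed for moulting, read 4.13, 4.13 and 4.06 against 4.07, 4.39 and 4.79, differing by 0.31 ± 0.18, or 0.13 without that array. Tra-1, the GLI-like factor of sex determination, differed by 0.12 ± 0.10. Scp-1, a sterol-sensing relative of the SREBP escort protein, read 5.21, 5.21 and 5.14 against 4.96, 4.83 and 4.51 and differed by -0.42 ± 0.14 (limma adjusted p = 0.205), or -0.29 without it (limma adjusted p = 0.169). The Dispatched-like gene che-14, ptd-2 and the Niemann-Pick C1 homologs ncr-1 and ncr-2 were not tested, with che-14 between 2.68 and 3.07. Of 9 sterol uptake and hormone genes, which include ncr-1 and ncr-2, 3 were tested and none was called or had an unadjusted p under 0.05, with daf-12 at 0.19 ± 0.14, stdh-1 at -0.13 ± 0.20 (0.09 without that array) and the lipoprotein receptor gene lrp-1 at 0.08 ± 0.15.

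Genes of the moult and the apical matrix lay mostly above control, and none passed. Of 24 listed genes 14 were tested, 12 were above control and 2 below (median difference 0.51), and limma called 0 of them, with 8 higher and 2 lower at an unadjusted p under 0.05. All tested probe sets gave 9.2% higher and 8.52% lower at that p, and 3452 of the 8053 lay above control. Mlt-9 passed the filter only through the GYY4137 arrays. Without mlt-9, 11 of 13 were above control (median 0.45) and 7 were higher at that p (53.8%). With all such probe sets left out, the share over the array was 8.88%. Mlt-9 read 3.40, 3.66 and 3.60 on the controls and 4.28, 4.38 and 5.16 after GYY4137. All controls were under the floor, so the filter fixed the direction, and the difference of 1.05 ± 0.23 is uncertain in size (limma adjusted p = 0.0841, and 0.00787 without GYY4137 replicate 3). The apical matrix gene sym-1 read 4.75, 4.32 and 4.70 against 5.06, 5.62 and 5.84, a difference of 0.91 ± 0.22 (limma adjusted p = 0.107), and mlt-10 differed by 0.73 ± 0.22 (limma adjusted p = 0.173). Nhr-23, a nuclear receptor that drives the moulting programme, differed the other way. It read 5.27, 5.72 and 5.63 on the controls and 4.94, 4.89 and 4.37 after GYY4137, a difference of -0.81 ± 0.19 (limma adjusted p = 0.103). GYY4137 replicate 3 was the highest of the 6 arrays for 10 of the 14, mlt-9 among them. Over all tested probe sets it was the highest for 2010 of 3452 above control and 281 of 4601 below. Without this array the median was 0.30, or 0.28 with mlt-9 left out too, and limma called nhr-23 and the peroxidase gene mlt-7 lowered (-0.63 and -0.58, adjusted p = 0.0397 and 0.0153) and, mlt-9 apart, 0 raised.

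**Figure D5:**
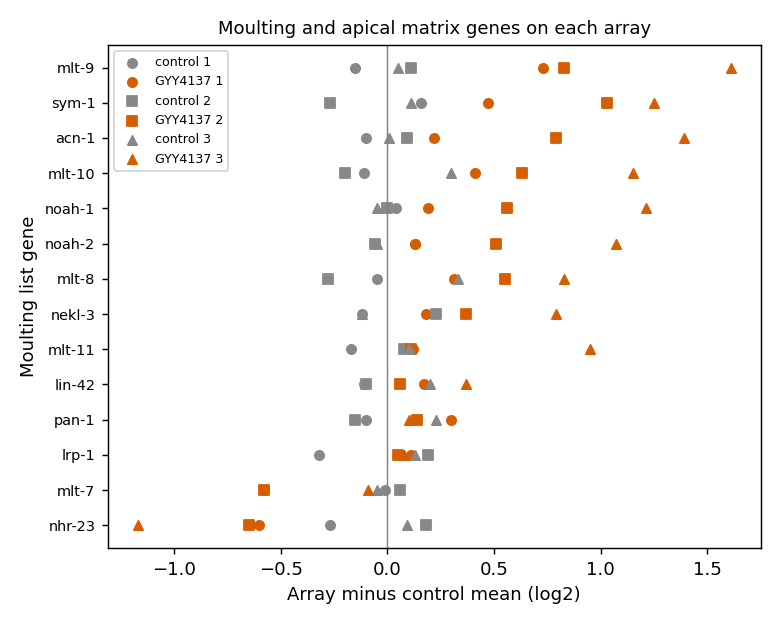
Deviation of each array from the control mean (x axis, log2) for the 14 tested genes of the moulting list, with controls in grey, GYY4137 in orange and a marker shape per replicate. GYY4137 replicate 3 (orange triangle) lies furthest right for 10 of the 14, and nhr-23 and mlt-7 are the genes below control.

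Markers of the tissues in the worm were set beside these values. Of 10 epidermis markers, the tissue of many members, 9 were on the array under 1 symbol. They had a mean log2 value between 6.22 and 6.35 on the controls and between 6.29 and 6.49 after GYY4137, with 0 of 7 tested called, 1 of 7 higher at an unadjusted p under 0.05 and elt-1 and che-14 under the floor throughout. The 7 tested markers split into 4 above control and 3 below, with a median difference of 0.00 (-0.11 without GYY4137 replicate 3). Rol-6 differed by 0.56 ± 0.20 (0.41 without GYY4137 replicate 3), dpy-7 by 0.47 ± 0.22 (0.22 without it), dpy-13 by 0.25 ± 0.11 and lin-26 by -0.22 ± 0.12. Ajm-1 differed by -0.25 ± 0.17, col-19 by -0.10 ± 0.10 and elt-3 by 0.00 ± 0.16. Of the seam markers egl-18, elt-6 and ceh-16, and of the glia and socket markers, 1 each was tested and none was called, with none at an unadjusted p under 0.05. Muscle markers lay at 7.77 to 8.01 on the controls and 7.50 to 7.71 after GYY4137, with 0 of 4 called and 3 of 4 lower at an unadjusted p under 0.05. Without GYY4137 replicate 3, limma called 2 of the 4 lowered, the myosin genes myo-3 (-0.64, adjusted p = 0.0219) and unc-54 (-0.60, adjusted p = 0.0471). Oocyte and eggshell markers lay at 8.67 to 8.77 and 8.25 to 8.49, with 0 of 6 called and 3 of 6 lower at an unadjusted p under 0.05, and without that array limma called 1 lowered, egg-3 (-0.57, adjusted p = 0.0242). None of the 5 intestine, 3 pharynx, 3 neuron, 6 germline and 5 yolk markers tested was called, and those at an unadjusted p under 0.05 were 1 higher of intestine, 1 higher of neuron and 1 lower of yolk. Sperm markers lay at 4.87 to 5.01 and 5.14 to 5.38, with 0 of 3 called and 2 of 3 higher at that p. Without GYY4137 replicate 3, limma called both of these raised, msp-142 (0.51, adjusted p = 0.0280) and ssq-2 (0.74, adjusted p = 0.0468). No gene of the other marker lists was called without that array. Over all tested probe sets, with all 6 arrays, 9.2% were higher and 8.52% lower at an unadjusted p under 0.05. The part of these tissues in the members' differences was not tested.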

How the data were processed

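Total RNA of 6 samples was hybridised to Affymetrix arrays, 1 array each. The deposited values are GCRMA values, 1 per probe set and array, per the submitters' processing notes. The version is not given in the sources used here, nor is the scale, and the deposited values are read as log2 from their range, 1.88 to 13.3. Of 22625 probe sets 77 controls were left out. Gene names came from the platform annotation, in which 20766 probe sets had 1 symbol and 20701 of these matched the WBcel235 gene table. No member's name changed, and probe sets with several symbols gave no gene name.

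Probe sets above 4 on at least 3 of 6 arrays were tested (8053). The difference, GYY4137 minus control, came from limma 3.58.1 (lmFit and eBayes, two-sided; R 4.3.3), with Benjamini-Hochberg adjustment over all 8053 and a threshold of 0.05. Each ± with a difference is the fit's standard error. A listed gene used its probe set with the highest mean. The fit was tested on simulated data. The number of arrays limits the precision. The alternatives were no filter, a floor of 6, other normalizations, the replicate number as a block, estimated array weights, a trend of variance with intensity, other thresholds and leaving out each array.

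The members and lists were chosen with earlier results of these data known. Named genes were members with adjusted p under 0.05, then up to 15 per direction with the smallest p, up to 2 per family with the highest mean, 10 set genes, and up to 4 per list. Whether the replicate numbers pair the samples is not settled. Same-numbered arrays' deviations from their group means correlated at 0.108, -0.0161 and 0.0513. Low correlations over all probe sets cannot exclude pairing, so the replicate block was kept as an alternative.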

Additional observations from a re-analysis of the deposited data

Results flagged for a closer look

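Of the 65 members left out of the test, being above the floor of 4 on fewer than 3 arrays, 62 were above it on no array. The rest, hog-1, ptr-18 and wrt-6, were above it on GYY4137 arrays and on no control. For hog-1 and wrt-6 this was 1 array, GYY4137 replicate 3, and for ptr-18 it was 2 arrays. Hog-1, a Hog-domain gene, read 3.19, 3.06 and 3.29 on the controls and 3.33, 3.83 and 4.49 after GYY4137, a difference of means of 0.70. Ptr-18, whose product clears GRL-7, read 3.60, 3.26 and 3.71 against 3.72, 4.05 and 4.27, a difference of 0.49. Wrt-6, a warthog gene, read 3.51, 3.30 and 3.77 against 3.76, 3.99 and 4.29, a difference of 0.49 with overlapping groups. In each, GYY4137 replicate 3 was the highest array. In the fit without a filter the adjusted p-values were 0.532, 0.481 and 0.473.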

How the results depend on the processing

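The raised members numbered 3 in the report. They were 0 with no filter, 11 with array weights and 10 at an unadjusted p of 0.05, and 0 to 5 when 1 array was left out. The lowered members numbered 0, and 7 with array weights, 2 at an adjusted p of 0.10, 8 at an unadjusted p of 0.05 and 0 to 5 in the leave-outs. Array weights put 4.82 on GYY4137 replicate 2 and 0.143 on replicate 3. All calls numbered 121, and 33 with no filter, 80 with a floor of 6, 1389 with array weights, 267 at an adjusted p of 0.10, 1427 at an unadjusted p of 0.05 and 12 to 381 in the leave-outs. With the replicate number as a block 2 members were raised and 73 probe sets called in all; grl-7 on 173567_s_at lost its call. The family medians were 0.06 (wrt), 0.02 (grl) and 0.01 (ptr) with no filter, where most members lie at background, and the ptr median was -0.23 with a floor of 6 and -0.39 to -0.24 in the leave-outs. The moulting list had 0 to 3 called in the leave-outs and a median of 0.21 with no filter. Of 373 member values under alternatives 3 changed sign, each near 0: ptc-1 (175397_at), at 0.00 without control replicate 2 and from there to -0.18 in the leave-outs, grl-27, at 0.01 without control replicate 3 and from there to -0.27, and grd-10, at -0.04 with array weights. The cause of these shifts was not tested, beyond the fewer arrays or other probe sets each setting uses. Leaving out probe sets whose direction the filter fixes, an alternative chosen after seeing the data, left 3 members raised and 0 lowered, with 0 of the moulting list called. Values under the floor of 4 give no firm level.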
